A study of Saccharomyces cerevisiae with 7 samples.

Results

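The genes described here are 39 genes of the tricarboxylic acid (TCA) cycle, the glyoxylate cycle and gluconeogenesis in Saccharomyces cerevisiae, of 5449 S. cerevisiae genes with a probeset on the array. They were taken by gene symbol from the annotation of the array, and each has 1 probeset, a set of short probes for its transcript. Of the 39, 15 are enzymes of the mitochondrial TCA cycle, and 24 are enzymes, carriers and regulators, most of them for the use of ethanol, acetate and lactate. The second set is called the glucose-repressed genes below, a name from textbook knowledge and not from these arrays. It is only a label: it does not mean that the TCA genes escape glucose repression, or that each of the 24 is mainly under it. Repression by glucose was not measured here.

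RNA came from 7 separate cultures of strain NRRL Y-12632 (ATCC 18824, cir+), all started from the same inoculum, which had been grown in control media. Of these, 4 cultures grew for 24 h in simulated asbestos mine drainage media, YPD prepared with the filtered water left after deionized water was freeze-thawed with mine tailings, and 3 grew for 24 h in YPD media made with deionized water alone. YPD is yeast extract, peptone and dextrose (glucose), so both media contained glucose at the start. How much glucose remained at harvest is not stated in the sources used here. Each culture was hybridized to an Affymetrix Yeast Genome 2.0 array, and values are log2 signals from the Robust Multichip Average (RMA), on which a difference of 1 is a 2-fold change.

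In the TCA cycle, acetyl-CoA is joined to oxaloacetate and oxidized in the mitochondrion, which feeds electrons to respiration. The glyoxylate cycle bypasses the steps that release carbon dioxide, so that yeast can build sugar from ethanol or acetate through gluconeogenesis. While glucose is present, the repressor Mig1 helps to keep genes of the second route low. When glucose runs out, the kinase Snf1 relieves this, and the activators Cat8, Sip4 and Adr1 switch the genes on, while the HAP complex and the retrograde factors Rtg1 and Rtg3 act on TCA cycle genes.

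All 39 genes lay above the background of 1.515 on all 7 arrays, the 95th percentile of the probesets designed for another yeast, Schizosaccharomyces pombe. The same was true of 5396 of all 5498 S. cerevisiae probesets, so passing this cut says little about how strongly a gene was expressed. Mean correlation between arrays was 0.9905 within control, 0.989 within mine drainage and 0.9714 between them. Several technical measures differed between the groups. The 3' minus 5' signal of 8 control transcripts, a sign of RNA integrity called the 3' bias below, ran from 0.495 to 0.866 in mine drainage and from 0.792 to 1.14 in control. The hybridization controls, which are added and do not come from the cells, ran from 9.66 to 10.15 in mine drainage and from 9.37 to 9.72 in control. The mean signal of ribosomal RNA probesets did not overlap, at 11.73 to 11.98 in mine drainage and 11.36 to 11.59 in control. The part of these measures in the results was not tested beyond the fit with 3' bias given below.

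Enzymes of the TCA cycle were higher in mine drainage for 7 of 15 genes, and the glucose-repressed genes for 2 of 24, at a limma adjusted p below 0.05. No gene of either set was lower at that threshold, at which 14.5% of all 5498 S. cerevisiae probesets were higher and 17.1% were lower. The share of the TCA set is above that background, and that of the glucose-repressed set is below it. The median log2 difference was 0.27 over the TCA set, with 14 of 15 genes above 0. It was 0.07 over the glucose-repressed set, with 16 of 24 above 0, and this median ran from 0.028 without control replicate 1 to 0.14 without control replicate 3, and was 0.19 with 3' bias as a covariate. Without control replicate 2 it was 0.044. Over all S. cerevisiae probesets it was -0.03, with 46.1% above 0. After a further quantile normalization the medians changed places, at 0.18 for the TCA set and 0.20 for the glucose-repressed set, while the counts of calls remained 7 and 2. The difference between the sets was not tested.

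**Figure D1:**
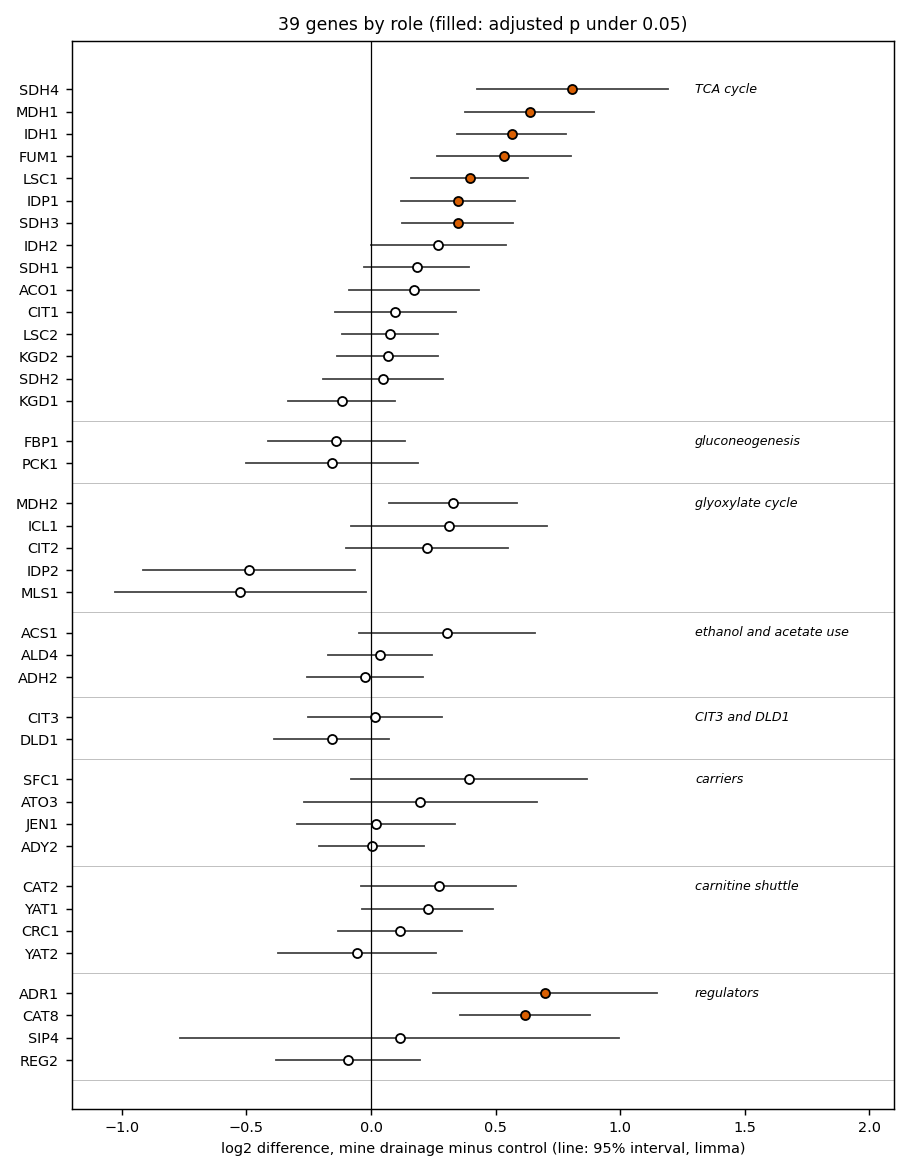
Log2 difference between mine drainage (4 arrays) and control (3 arrays) for the 39 genes, grouped by role on the vertical axis, with points for the limma estimate and lines for its 95% interval. The 9 filled points, 7 in the TCA cycle and 2 among the regulators, passed an adjusted p of 0.05, and every one of them lies to the right of 0.

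Around the cycle, the entry enzymes did not pass the test. CIT1, the citrate synthase that condenses acetyl-CoA with oxaloacetate, had a log2 difference of 0.10 (95% interval -0.14 to 0.34). ACO1, the aconitase, had 0.17 (-0.09 to 0.43). For both genes the arrays of the groups overlapped, and the intervals leave room for a change of either sign.

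IDH1 and IDH2 encode the subunits of the NAD-dependent isocitrate dehydrogenase, a rate-controlling step. IDH1 read 8.95, 8.80 and 8.76 on control replicates 1 to 3 and 9.28, 9.38, 9.48 and 9.46 on mine drainage replicates 1 to 4. The groups did not overlap, and the gene rose by 0.56 (standard error 0.097, 1.48-fold, limma adjusted p = 0.00434). IDH2 read 9.36, 9.34 and 9.48 in control and 9.72, 9.48, 9.92 and 9.54 in mine drainage, a difference of 0.27 (standard error 0.121) that missed the threshold (limma adjusted p = 0.113). The groups met at mine drainage replicate 2, which lay just below control replicate 3 before rounding.

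IDP1 encodes the mitochondrial NADP-dependent isocitrate dehydrogenase, a separate enzyme of the same reaction. It read 9.11, 8.91 and 8.80 in control and 9.32, 9.32, 9.20 and 9.32 in mine drainage, higher by 0.35 (standard error 0.102, limma adjusted p = 0.0283). The groups did not overlap, and control replicate 1 came closest to mine drainage, at 9.11 against 9.20. The call was lost under 6 of 16 alternatives, among them the fits without control replicate 2 or 3 and without mine drainage replicate 4.

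The alpha-ketoglutarate dehydrogenase genes did not pass. KGD1, the first component of that complex, was the only TCA gene with a negative difference, at -0.12 (95% interval -0.33 to 0.10). KGD2, its succinyltransferase, had 0.07 (-0.14 to 0.27). For both, the arrays of the groups overlapped.

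Of the succinyl-CoA ligase subunits, the alpha subunit gene LSC1 read 8.43, 8.48 and 8.25 in control and 8.75, 8.71, 8.96 and 8.71 in mine drainage. It was higher on every mine drainage array, by 0.40 (standard error 0.105, 1.32-fold, limma adjusted p = 0.0204). The call was lost under 6 of 16 alternatives, among them the fits without control replicate 2 or 3 and without mine drainage replicate 3. LSC2, the beta subunit gene, had 0.08 (95% interval -0.12 to 0.27). LSC1 minus LSC2 differed between the groups by 0.32, with an exact permutation p of 0.0286, the smallest that the 35 splits of 7 arrays allow. Over the 17 pairs of subunits or related enzymes compared in this way, chosen after the values were seen, the adjusted p was 0.121.

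Succinate dehydrogenase, is shared between the TCA cycle and the respiratory chain, and 2 of its 4 subunit genes passed. SDH3 and SDH4 encode the membrane anchor, SDH1 the flavoprotein and SDH2 the iron-sulfur protein. SDH4 read 6.59, 6.07 and 5.85 in control and 6.92, 6.93, 7.22 and 6.84 in mine drainage. Its rise of 0.81 (standard error 0.171, 1.75-fold, limma adjusted p = 0.00879) was the largest of the 39 genes, and its control arrays were spread over more than those of any other TCA gene (SD 0.383). SDH3 read 7.96, 7.71 and 7.73 in control and 8.14, 8.11, 8.24 and 8.09 in mine drainage, higher by 0.35 (limma adjusted p = 0.0266), a call lost under 8 of 16 alternatives, among them the fits without control replicate 2 or 3 and without mine drainage replicate 3 or 4. Neither anchor gene overlapped between the groups.

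The catalytic subunit genes did not pass, with 0.18 for SDH1 (95% interval -0.03 to 0.39) and 0.05 for SDH2 (-0.19 to 0.29). SDH2 turned to -0.0046 after a further quantile normalization. SDH4 exceeded SDH1 in its difference by 0.62 and SDH2 by 0.76, each with an exact permutation p of 0.0571, and SDH3 by 0.46 with an exact permutation p of 0.0286. After adjustment over the 17 pairs these came to 0.162, 0.162 and 0.121, and with 17 pairs and 35 splits a few pairs alone cannot pass the adjusted threshold.

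FUM1 encodes fumarase, which hydrates fumarate to malate. It read 9.14, 8.95 and 8.84 in control and 9.69, 9.30, 9.48 and 9.56 in mine drainage. The rise of 0.53 (standard error 0.120, 1.45-fold, limma adjusted p = 0.0106) was larger than the spread in either group, SD 0.151 and 0.165. The call was lost under 3 of 16 alternatives, among them the fit without control replicate 2.

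MDH1, the mitochondrial malate dehydrogenase that closes the cycle, read 8.59, 8.24 and 8.47 in control and 8.95, 9.20, 9.16 and 8.98 in mine drainage. The lowest mine drainage array was above the highest control array, and the gene rose by 0.64 (standard error 0.116, 1.56-fold, limma adjusted p = 0.00516). MDH1 and IDH1 passed the threshold under all 16 alternative settings tried.

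**Figure D2:**
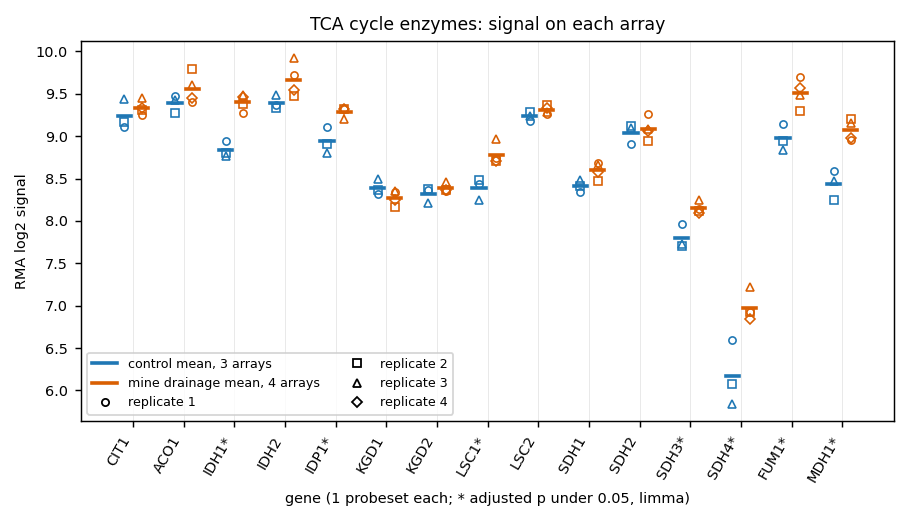
RMA log2 signal (vertical axis) of the 15 TCA cycle enzymes on each array, with a symbol for each replicate and bars for the means of 3 control and 4 mine drainage arrays. For the 7 genes marked with an asterisk all mine drainage symbols stand above all control symbols, with the widest gap between means, 0.81, at SDH4.

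In all, the groups separated completely for 7 of the 15 TCA genes, with mine drainage above control in each. Of all S. cerevisiae probesets 17.7% separated upward, 20.5% separated downward and 38.2% in either direction. On single arrays, the median deviation of the 15 genes from their control means was 0.33, 0.31, 0.26 and 0.16 on mine drainage replicates 1 to 4. On control replicates 1 to 3 it was 0.05, -0.03 and -0.00. The median was thus higher on each mine drainage array than on each control array, and lowest among the 4 on replicate 4. Each control array is part of the mean it is set against, which draws the control medians toward 0, and these medians restate the differences above.

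The count of 7 rests on the arrays used. Without control replicate 2 it fell to 3 of 15 and without control replicate 3 to 4 of 15, while the share of all probesets called higher fell to 5.89% and 7.55%. With 3' bias as a covariate, 2 of 15 were higher, IDH1 and MDH1, with 4.15% of all probesets, while the median difference of the set was 0.27.

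Among the glucose-repressed genes, neither gluconeogenic enzyme gene passed the test in the main fit. Both were dim, with a mean signal from 4 to 6, a range that held 787 of 5498 probesets, with 279 below it. Both also had arrays with identical values. How well a change can be seen at that level was not tested. PCK1, the phosphoenolpyruvate carboxykinase, read 4.40, 4.21 and 4.21 in control and 3.89, 4.55, 4.01 and 4.01 in mine drainage. FBP1, the fructose bisphosphatase, read 4.40, 4.14 and 4.12 in control and 4.21, 4.14, 3.82 and 4.14 in mine drainage. The groups overlapped for both genes, with differences of -0.16 (95% interval -0.50 to 0.19) and -0.14 (-0.41 to 0.14). Both turned to 0.01 after a further quantile normalization. Without mine drainage replicate 2, its highest array, PCK1 passed the threshold at -0.30.

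The glyoxylate cycle genes went both ways, and none passed. ICL1, the isocitrate lyase that starts the bypass, read 6.96, 6.46 and 6.95 in control and 6.96, 7.53, 6.96 and 6.96 in mine drainage. Control replicate 1 and mine drainage replicates 1, 3 and 4 carried the same value, with control replicate 2 the lowest and mine drainage replicate 2 the highest, and the difference of 0.31 had an interval of -0.08 to 0.71. With array weights ICL1 passed as higher, at 0.48. MLS1, the malate synthase that follows it, read 5.08, 5.08 and 5.68 in control and 4.41, 5.34, 4.70 and 4.59 in mine drainage, a difference of -0.52 (95% interval -1.03 to -0.02, limma adjusted p = 0.102). MLS1 passed the threshold without mine drainage replicate 2, at -0.72, and with array weights, at -0.47. With 3' bias as a covariate it was 0.00872.

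ICL1 minus MLS1 differed between the groups by 0.84 (exact permutation p = 0.0286, or 0.121 after adjustment over the 17 pairs). Values identical on at least 2 arrays, as in ICL1, occurred in 16 of the 39 genes and in 25.4% of all S. cerevisiae probesets.

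The remaining enzymes around the bypass were MDH2, CIT2 and IDP2. MDH2, the cytosolic malate dehydrogenase, averaged 7.80 ± 0.141 (SD, n = 3) in control and 8.13 ± 0.151 (SD, n = 4) in mine drainage. It did not overlap between the groups, but its difference of 0.33 narrowly missed the threshold (limma adjusted p = 0.0529), and it passed under 4 alternatives. IDP2, the cytosolic NADP-dependent isocitrate dehydrogenase, had -0.49 (95% interval -0.91 to -0.06, limma adjusted p = 0.0753) and passed without control replicate 1, at -0.70, and with array weights, at -0.50. It was -0.25 without control replicate 3 and -0.064 with 3' bias as a covariate, with no call in either.

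The difference of IDP2 was opposite in sign to that of its mitochondrial counterpart IDP1. IDP1 minus IDP2 differed between the groups by 0.84 (exact permutation p = 0.0286, or 0.121 after adjustment over the 17 pairs). CIT2, the peroxisomal citrate synthase that is the classical target of the retrograde pathway, had 0.23 (-0.10 to 0.55), with mine drainage replicate 1 highest at 9.65. MDH1 minus MDH2 differed between the groups by 0.31, which did not pass (exact permutation p = 0.171).

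Genes that turn ethanol and acetate into acetyl-CoA did not pass either. ADH2, the alcohol dehydrogenase that oxidizes ethanol, read 6.13, 6.39 and 6.20 in control and 6.35, 6.20, 6.12 and 6.20 in mine drainage. Its difference of -0.02 (95% interval -0.26 to 0.21) lay within the spread of the arrays. ALD4, the mitochondrial aldehyde dehydrogenase, had 0.04 (-0.17 to 0.24) and turned to -0.091 after a further quantile normalization. ACS1, the acetyl-CoA synthetase gene repressed by glucose, had 0.30 (-0.05 to 0.66), with mine drainage replicate 1 at 6.81 below all controls and replicate 2 highest at 7.55. ACS1 passed as higher without mine drainage replicate 1, at 0.44, and with array weights, at 0.43. Without mine drainage replicate 2 it was 0.19, with no call. ADH2 is close in sequence to ADH1, and cross-hybridization between them was not tested.

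The carriers had small or uneven differences. JEN1, the lactate and pyruvate permease, read 6.39, 6.50 and 6.80 in control and 6.59, 6.82, 6.60 and 6.32 in mine drainage, a difference of 0.02 (-0.30 to 0.34). ADY2, an acetate transporter, had 0.00 (-0.21 to 0.21). SFC1, the mitochondrial succinate-fumarate carrier, and ATO3, an ammonium exporter, had 0.39 and 0.20, and for both mine drainage replicate 2 was highest, at 4.88 and 8.17. That replicate also gave the highest mine drainage value of PCK1, ICL1, MLS1, IDP2, ACS1, JEN1, ADY2, CRC1 and YAT2.

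In the carnitine shuttle, which moves acetyl groups into the mitochondrion, none of 4 genes passed. The acetyltransferase genes CAT2, YAT1 and YAT2 had 0.27, 0.23 and -0.06, and the carrier gene CRC1 had 0.12. CIT3, the mitochondrial methylcitrate synthase, and DLD1, the D-lactate dehydrogenase, had 0.01 and -0.16, without passing. Across these 6 genes the groups overlapped.

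The only glucose-repressed genes that rose encode transcription factors. CAT8, the zinc cluster activator of gluconeogenic genes, read 4.81, 4.62 and 4.81 in control and 5.54, 5.17, 5.48 and 5.27 in mine drainage. It was higher on every mine drainage array, by 0.62 (standard error 0.117, 1.53-fold, limma adjusted p = 0.00607). CAT8 kept its call under 15 of 16 alternatives, all but the fit with 3' bias as covariate. Its mean signal was also from 4 to 6, the dim range of PCK1 and FBP1, as were those of RTG1 and SIP2 given below. ADR1, the zinc finger activator of ADH2 and of peroxisomal genes, read 6.83, 6.86 and 7.25 in control and 7.48, 7.24, 8.09 and 7.89 in mine drainage.

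ADR1 rose by 0.70 (standard error 0.201, 1.62-fold, limma adjusted p = 0.0273), but mine drainage replicate 2 and control replicate 3 met at 7.24 and 7.25. Its call was lost under 6 alternatives, among them the fits without control replicate 1 or 2 and without mine drainage replicate 3 or 4. Some genes that these activators are known to switch on, ADH2 for Adr1 and PCK1, FBP1, ICL1, MLS1, JEN1 and SFC1 for Cat8, had no call in the main fit. These were picked from textbook knowledge, each is a gene without a call, and they are not all of the targets. GUT1, also known as a target of Adr1, rose by 0.44 (limma adjusted p = 0.0117), a call lost under 3 of 16 alternatives. ACS1, another known target, had 0.30 with no call in the main fit and passed as higher under 2 alternatives. How the targets behaved as a set was not tested. The activity of Adr1 and Cat8 was not tested.

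The other regulators had no call. SIP4, a zinc cluster activator that is itself switched on by Cat8, ran from 5.28 to 6.60 in control and from 4.99 to 6.40 in mine drainage. That spread, the widest of the 39 genes, leaves an interval of -0.77 to 1.00 around its difference of 0.11. REG2, a regulatory subunit of the phosphatase Glc7, had -0.09 (-0.38 to 0.20).

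**Figure D3:**
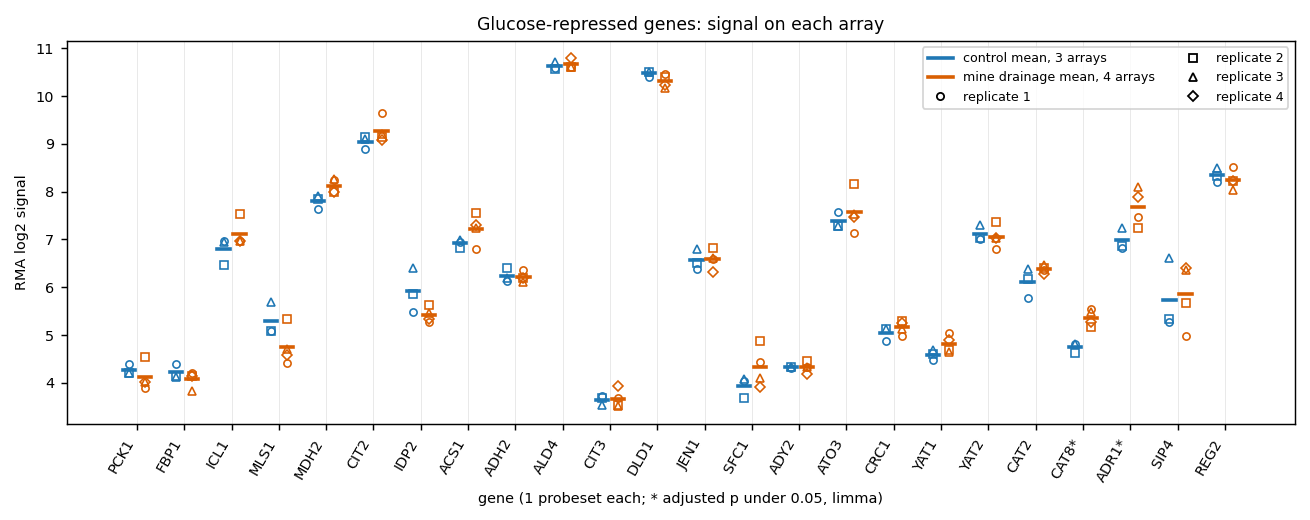
RMA log2 signal (vertical axis) of the 24 glucose-repressed genes on each array, drawn as for the TCA cycle, with a symbol for each replicate and bars for group means. CAT8 and ADR1, marked with an asterisk, passed the test, and the SIP4 arrays range from 4.99 to 6.60.

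On single arrays, the median deviation of the 24 genes from their control means was 0.02, 0.16, 0.05 and 0.06 in mine drainage and -0.11, -0.06 and 0.09 in control. Control replicate 3 thus lay above 3 of the 4 mine drainage arrays. The count of 2 fell to 1 without control replicate 1, control replicate 2, mine drainage replicate 3 or mine drainage replicate 4, where 15.1%, 5.89%, 9.88% and 9.29% of all probesets were higher. With 3' bias as a covariate it was 0, with 4.15% of all probesets.

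Signal level differed between the sets and moved with the difference between the groups. Of the TCA genes, 13 of 15 had a mean signal from 8 to 10, a range in which the 1668 S. cerevisiae probesets had a median difference of 0.04. Of the glucose-repressed genes, 10 of 24 lay from 4 to 6, where 787 probesets had a median of -0.15, and 9 lay from 6 to 8, where 2415 probesets had -0.07. At 10 and over, the 349 probesets had 0.13. After a further quantile normalization these medians were -0.00 from 8 to 10, -0.03 from 4 to 6, -0.02 from 6 to 8 and 0.01 at 10 and over.

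**Figure D4:**
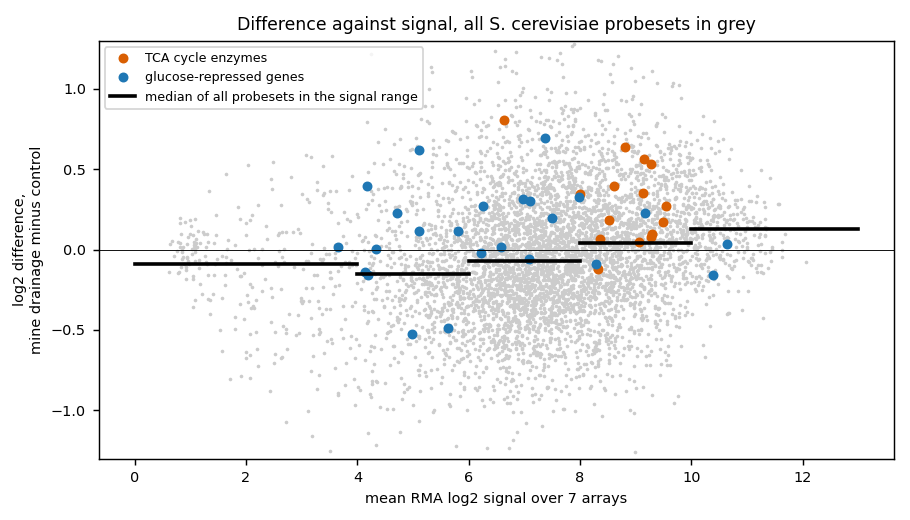
Log2 difference (mine drainage minus control, vertical axis) against mean RMA log2 signal over 7 arrays (horizontal axis), with all S. cerevisiae probesets in grey, of which 32 lie outside the range drawn. Black bars give the median of all probesets in each signal range, from -0.15 at 4 to 6 to 0.13 at 10 and over, with TCA genes in orange and glucose-repressed genes in blue.

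Other genes of these pathways, from lists written by role with earlier results known, are given by counts, to be read against the 14.5% of all probesets called higher and the 17.1% called lower. Around pyruvate, 5 of 12 genes of pyruvate dehydrogenase, its regulators and the anaplerotic enzymes rose and 1 fell. PKP1, a kinase of pyruvate dehydrogenase, read 6.57, 6.57 and 6.38 in control and 7.38, 7.15, 7.22 and 7.04 in mine drainage, higher by 0.69 (limma adjusted p = 0.0036). PKP2, another kinase gene of that complex, named after its value was seen, had -0.31 with no call (limma adjusted p = 0.0755). The phosphatase genes of the same complex moved in opposite directions, PTC6 rising by 0.80 (limma adjusted p = 0.00371) and PTC5 falling, at -0.63 (limma adjusted p = 0.00706).

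MAE1, the mitochondrial malic enzyme, rose by 0.72 (limma adjusted p = 0.0128). The dehydrogenase's own subunit genes LAT1 and PDA1, named after their values were seen, rose by 0.35 and 0.29, while PDB1 and LPD1 had 0.06 and 0.06 with no call. PDA1 lost its call under 10 of 16 alternatives.

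Of 9 mitochondrial carrier genes, 2 rose and none fell, against 14.5% and 17.1% of all probesets. MPC1, a subunit of the mitochondrial pyruvate carrier, rose by 0.76 (limma adjusted p = 0.00892), and its partner subunits MPC2 and MPC3 had -0.17 and 0.02 with no call. DIC1, the dicarboxylate carrier, rose by 0.45 (limma adjusted p = 0.0257), a call lost under 6 of 16 alternatives.

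Among isozymes, paralogs and assembly factors of the 39 genes, 1 of 12 measured genes rose and none fell, against 14.5% and 17.1% of all probesets. The gene that rose was SDH7, an assembly factor of succinate dehydrogenase, higher by 0.64 (limma adjusted p = 0.0302). Its groups overlapped at mine drainage replicate 1, and the call was lost under 8 of 16 alternatives. SDH5, the factor that attaches flavin to SDH1, had 0.27 and missed the threshold (limma adjusted p = 0.0574).

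Of 9 regulators in the HAP complex and the retrograde pathway, 2 rose and 1 fell, against 14.5% and 17.1% of all probesets. HAP4, the activating subunit of the HAP complex and the one that responds to carbon source, read 8.79, 8.64 and 8.74 in control and 9.61, 9.31, 9.34 and 9.53 in mine drainage. It rose by 0.72 (standard error 0.107, 1.65-fold, limma adjusted p = 0.00285) and passed under all 16 alternatives. HAP2, HAP3 and HAP5, the DNA-binding subunits, had 0.19, -0.08 and -0.12 with no call.

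RTG1, of the retrograde pathway, read 5.24, 5.39 and 5.11 in control and 6.15, 5.62, 5.96 and 5.96 in mine drainage, higher by 0.67 (limma adjusted p = 0.00706). Its partner RTG3 had -0.41 and missed the threshold (limma adjusted p = 0.0629). HAP1, the heme-responsive activator, fell, at -0.45 (limma adjusted p = 0.0482), a call lost under 10 of 16 alternatives.

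In the Snf1 and Mig1 system of glucose repression, 2 of 18 genes rose and 3 fell, close to the shares of 14.5% and 17.1% over all probesets. SNF1, the kinase, rose by 0.45 (limma adjusted p = 0.0114), and SNF4, its gamma subunit, by 0.35 (limma adjusted p = 0.0439). SNF4 lost its call under 10 of 16 alternatives, among them the fits without each single array except control replicate 3. SIP2, a beta subunit of the same kinase, read 4.97, 5.53 and 5.65 in control and 4.46, 4.69, 4.49 and 4.42 in mine drainage, lower at -0.87 (limma adjusted p = 0.00533). SAK1, a kinase that activates Snf1, fell, at -0.43 (limma adjusted p = 0.0307), as did RDS2, an activator of gluconeogenic genes, at -0.57 (limma adjusted p = 0.0279). SAK1 and RDS2 each lost their call under 8 of 16 alternatives. MIG1 had -0.37 and narrowly missed the threshold (limma adjusted p = 0.0514), with no overlap between the groups. MIG2 and MIG3 had -0.38 and -0.31 with no call, and their groups overlapped.

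**Figure D5:**
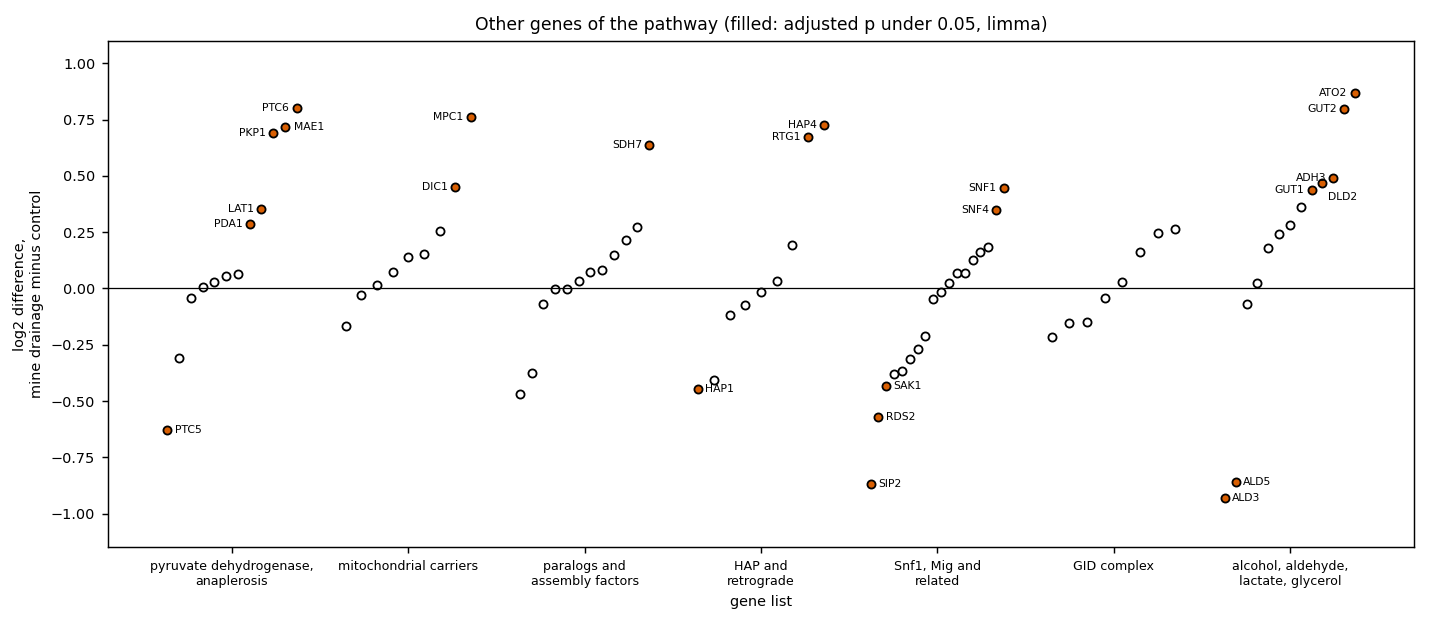
Log2 difference (mine drainage minus control, vertical axis) of each measured gene in 7 further lists of the pathway (horizontal axis), ordered by value within a list. Filled and labelled points passed an adjusted p of 0.05, with HAP4 at 0.72, MPC1 at 0.76 and SIP2 at -0.87, and the GID complex had none.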

How the data were processed

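The deposited values are log2 signals of 10928 probesets on 7 arrays. The authors made them in Partek Genomics Suite with RMA, which corrects the background, applies quantile normalization over all probesets and summarizes probes. Values ran from 0.163 to 12.8, and the number of arrays limits the precision. Quantile normalization removes any shift shared by most transcripts.

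Probesets were named through the platform annotation and an R64 gene table, which gave 5498 S. cerevisiae probesets. Groups and replicate numbers came from the sample titles. Mine drainage minus control was tested for all 5498 with limma 3.58.1 in R 4.3.3 (moderated test, two-sided, 5 residual degrees of freedom, Benjamini-Hochberg over 5498 probesets), which was tried on simulated data. Alternatives were the study's gene-by-gene test with the same adjustment, other limma priors and array weights, further normalizations, a filter on dim probesets, a replicate block, leaving out each array, the 3' bias of each array as a covariate and a trend with coding length subtracted. Comparisons of 17 gene pairs were added after seeing the data. Cultures were separate, from 1 inoculum, so p-values set the group difference against the spread between cultures. With 1 array per culture, that spread also holds RNA preparation and hybridization. The 39 genes, the lists and the tests were chosen with earlier results of these data known. Values on every array are given for called genes and PCK1, FBP1, ICL1, MLS1, CAT8, ADR1, ADH2 and JEN1, and other lists by counts and up to 4 genes of smallest p. Genes named beside these, IDH2, MDH2 and partner subunits included, were chosen after their values were seen. Promoter and protein sequences were not analysed here. Genes with near-identical copies may share probes. Figures were drawn with matplotlib 3.10.9.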

Additional observations from a re-analysis of the deposited data

Results flagged for a closer look

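Among the 4 mine drainage arrays, 5 of the 39 genes had an array far from the other three, by a gap that passes Dixon's 95% critical value. Chance flags about 1 in 20 such groups. Mine drainage replicate 3 stood apart for IDP1 (9.20, nearest array 9.32), KGD2 (8.46, nearest 8.36) and LSC1 (8.96, nearest 8.75). Replicate 2 stood apart for ICL1 (7.53, the other arrays at 6.96), and replicate 4 for ALD4 (10.79, the other arrays at 10.62). For these last genes the other arrays held an identical value, so any different value would pass, and the chance rate does not apply.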

How the results depend on the processing

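Of the 9 called genes, IDH1 and MDH1 passed under all 16 alternatives, 7 lost their call in at least 1 and none turned sign. Of the other 30, 12 passed in at least 1 alternative and 11 turned sign. Of 24 called genes in the other lists, 19 lost their call in at least 1 alternative and none turned sign. The causes were not tested. The planned choice among probesets was not run, since each gene has 1.

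Leaving out 1 array at a time gave 3 to 7 TCA genes called higher (median 0.19 to 0.33), 1 to 3 glucose-repressed genes called higher and 0 to 2 lower (median 0.028 to 0.14), and 324 to 832 probesets higher and 364 to 980 lower. Without control replicate 2 the counts were lowest, at 3 TCA genes and 324 probesets higher. Leaving out arrays also turned the sign of some differences near 0. ADH2 ran from -0.079 to 0.055, ADY2 from -0.037 to 0.048, ALD4 from -0.0084 to 0.079, CIT3 from -0.072 to 0.067, JEN1 from -0.068 to 0.14, SDH2 from -0.0200 to 0.096, SIP4 from -0.11 to 0.55 and YAT2 from -0.16 to 0.042. CIT1 minus CIT2 ran from -0.21 to 0.028, CIT1 minus CIT3 from -0.017 to 0.24 and PCK1 minus FBP1 from -0.14 to 0.10.

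The study's gene-by-gene test, read at an adjusted p below 0.05, called 2 TCA genes and 1 glucose-repressed gene higher, with 362 probesets higher and 368 lower. The study's own rule was an unadjusted p with a fold cut, so these are not the genes it would call. Array weights, whose estimation stopped before convergence and gave control replicate 2 a weight of 6.39, called 10 TCA genes higher. They called 7 glucose-repressed genes higher and 3 lower, with 1476 probesets (26.8%) higher and 1820 (33.1%) lower. They also gave SDH2 -0.034, JEN1 -0.074, ADY2 -0.079, CIT1 minus CIT2 0.12 and CAT8 minus SIP4 -0.077. A further quantile normalization gave medians of 0.18 (TCA) and 0.20 (glucose-repressed), SDH2 -0.0046, PCK1 0.012, FBP1 0.00715, ADH2 0.063, ALD4 -0.091, YAT2 0.012, CIT1 minus CIT3 -0.20 and PCK1 minus FBP1 0.0051. Shifting each array to a common median gave ADH2 0.0022.

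With 3' bias as a covariate, 2 TCA and 0 glucose-repressed genes were higher, with 228 probesets higher and 283 lower. The glucose-repressed median was 0.19, SDH2 -0.013, PCK1 0.0075, MLS1 0.00872, CIT3 -0.13, YAT2 0.24, CIT1 minus CIT2 0.14, CAT8 minus SIP4 -0.35, PCK1 minus FBP1 0.29 and YAT1 minus YAT2 -0.10. Subtracting a trend with coding length gave SDH2 -0.017, ADY2 -0.057, YAT2 0.042 and PCK1 minus FBP1 0.052.

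Replicate numbers are not stated to pair the cultures, and deviations of same-numbered arrays correlated at -0.07, -0.18 and 0.08, with 1 of 3 controls correlating best with its own number. With a replicate block, 4 TCA genes were higher, with 432 probesets higher and 497 lower, and ALD4 was -0.00843, CIT3 -0.072, SIP4 -0.067 and PCK1 minus FBP1 0.038.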

Other observations

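Of 13 genes for alcohol, aldehyde, acetate, lactate and glycerol use, 5 rose and 2 fell, where 14.5% of all probesets were higher and 17.1% lower. ATO2, an ammonium exporter and paralog of ADY2, rose by 0.87 (limma adjusted p = 0.0051), and GUT2, the mitochondrial glycerol phosphate dehydrogenase, by 0.80 (limma adjusted p = 0.00611). GUT1, the glycerol kinase, DLD2, a D-lactate dehydrogenase, and ADH3, the mitochondrial alcohol dehydrogenase, rose by 0.44, 0.47 and 0.49, and these were named after their values were seen. ALD5, a mitochondrial aldehyde dehydrogenase, fell, at -0.86 (limma adjusted p = 0.00186), and ALD3, a cytosolic one, at -0.93 (limma adjusted p = 0.00877). ALD2, a close paralog of ALD3, lay below background on all 7 arrays.

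In the GID ubiquitin ligase, which degrades gluconeogenic enzymes once glucose returns, none of 8 genes passed the limma threshold, and 2 had an unadjusted p under 0.05, as did 2436 of all 5498 probesets. RMD5, its RING subunit, had 0.26 (limma adjusted p = 0.0731) and UBC8, its ubiquitin-conjugating enzyme, had 0.25 (limma adjusted p = 0.106).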
